A study of Mus musculus with 10 samples.

Results

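The fatty acid binding proteins Fabp1, Fabp2, Fabp3, Fabp4, Fabp5 and Fabp7 and the fatty acid receptor Cd36 were followed in the livers of lactating mice on diets that differed in glycaemic index. The members were the probe sets of the array whose annotation names exactly 1 of these 7 genes, a probe set being a group of short probes that together read 1 transcript. There were 15 such probe sets among 45037 tested: 2 for Fabp1, 1 for Fabp2, 2 for Fabp3, 4 for Fabp4, 2 for Fabp5, 1 for Fabp7 and 3 for Cd36. The genes were chosen by name with their HGI and LGI signals and the differences between them already known, so those differences are given as a description, without a test of the members.

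QSi5 mice were fed at a high (HGI, 5 mice) or a low (LGI, 5 mice) glycaemic index from pregnancy until lactation peaked, and 1 array was run for each liver. The HGI food was 51.4% glucose by weight with a gross energy of 15.6 MJ per kg. The LGI food was 51.4% of the starch Hi-Maze (written "high amylase starch" in the labels) with 16.3 MJ per kg. All 10 mice were lactating. The labels also record a positive energy balance for every HGI mouse and a negative one for every LGI mouse, so carbohydrate, gross energy and energy balance cannot be told apart. The labels do not give age, litter or housing.

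Fatty acid binding proteins are small cytosolic proteins that fold into a barrel around a single fatty acid or a few related lipids, and carry them between membranes, lipid droplets, mitochondria and nuclear receptors. Each form is best known from 1 kind of tissue: Fabp1 from liver, Fabp2 from the intestine, Fabp3 from heart and muscle, Fabp4 from adipocytes, macrophages and capillaries, Fabp5 from skin, macrophages and endothelium, and Fabp7 from brain. Cd36 is a glycoprotein of the cell surface that takes up long-chain fatty acids and oxidised lipoproteins. It is abundant in fat, muscle, macrophages and capillaries. Fabp1 and Cd36 are known targets of nuclear receptors of the PPAR family, which bind fatty acids.

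The sequences upstream of 2 members are shown because they were the members in which a match to a PPAR element was found. They come from RefSeq (build GRCm38.p6) and cover the 250 bases before the annotated start, read 5′ to 3′ on the strand of the gene: chr6:71199629-71199878 on the plus strand for Fabp1 and chr5:17835897-17836146 on the minus strand for Cd36. Capitals mark the match to the PPAR element.
Fabp1: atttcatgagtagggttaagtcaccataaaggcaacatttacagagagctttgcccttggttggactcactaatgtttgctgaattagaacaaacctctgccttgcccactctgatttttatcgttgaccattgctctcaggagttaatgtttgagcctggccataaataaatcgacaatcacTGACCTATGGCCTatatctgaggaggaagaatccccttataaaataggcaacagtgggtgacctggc
Cd36: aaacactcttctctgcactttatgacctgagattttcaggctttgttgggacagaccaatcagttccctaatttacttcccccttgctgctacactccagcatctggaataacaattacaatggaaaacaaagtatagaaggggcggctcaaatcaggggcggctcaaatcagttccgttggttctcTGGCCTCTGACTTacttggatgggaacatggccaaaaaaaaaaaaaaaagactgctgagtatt
The motif searched on both strands was 2 direct copies of AGGTCA with 1 base of any kind between them, with up to 2 mismatches. Of the 7 genes, 5 matched a promoter entry (Fabp1, Fabp2, Fabp3, Fabp7 and Cd36), and 2 of these 5 held the motif, against 3.24% of 32851 promoter windows of the same length. The Fabp1 match lay 67 to 55 bases before the start with 1 mismatch, and the Cd36 match 63 to 51 bases before the start with 2. The half-site AGGTCA, part of the longer motif, was present without a mismatch in 3 of the 5 (Fabp1, Cd36 and Fabp7) and in 14.0% of all windows. Fabp1 and Cd36 were already known as PPAR targets, so nothing is read from these shares. These matches describe letters only, and no binding was measured here.

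Values are log2 signals after RMA. RMA removes background, gives the probe values of all arrays 1 common distribution and then summarises each set over its probes. The summarised values can still differ in distribution between arrays. Levels of different probe sets are not comparable as amounts of transcript, so differences are taken within each set across mice. Ranks on the array, and the words bright and dim, describe signal only. The median of all probe sets on an array was 3.91 to 3.97, and 12 of the 15 members lay above it on all 10 arrays, while 3 lay below it on all 10 (1 of Fabp3 and 2 of Fabp4). A mean log2 of at least 6 was reached by 9 of the 15. Correlations between arrays were 0.986 to 0.996. Arrays HGI 1 and LGI 4 stood apart from the others: the spread of all values was smallest in HGI 1 (SD 2.16 against 2.26 to 2.31), and in LGI 4 the neutrophil gene S100a8 stood at 8.92 against 3.95 to 4.28 in the other LGI mice. Differences are HGI minus LGI with the standard error (SE) of the fit by limma.

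Across the whole array 29 probe sets (0.0644%) had an adjusted p under 0.05 in limma, 17 higher (0.0377%) and 12 lower (0.0266%) in HGI, and 1 of the 15 members (Fabp5 1416022_at) was among them. Since the members were chosen with these differences known, nothing is read from that count. With every array centred on its median the split was 13 higher and 4 lower, and no member was included. Differences were above 0 at 9 members and below 0 at 6, with a median of 0.19 over the members and -0.02 over all probe sets. The diets did not overlap at 5 members, 3 higher and 2 lower in HGI, and 2 of these 5 are dim sets below the array medians. Over all probe sets 1.67% did not overlap, 0.475% with HGI higher and 1.2% with HGI lower.

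**Figure D1:**
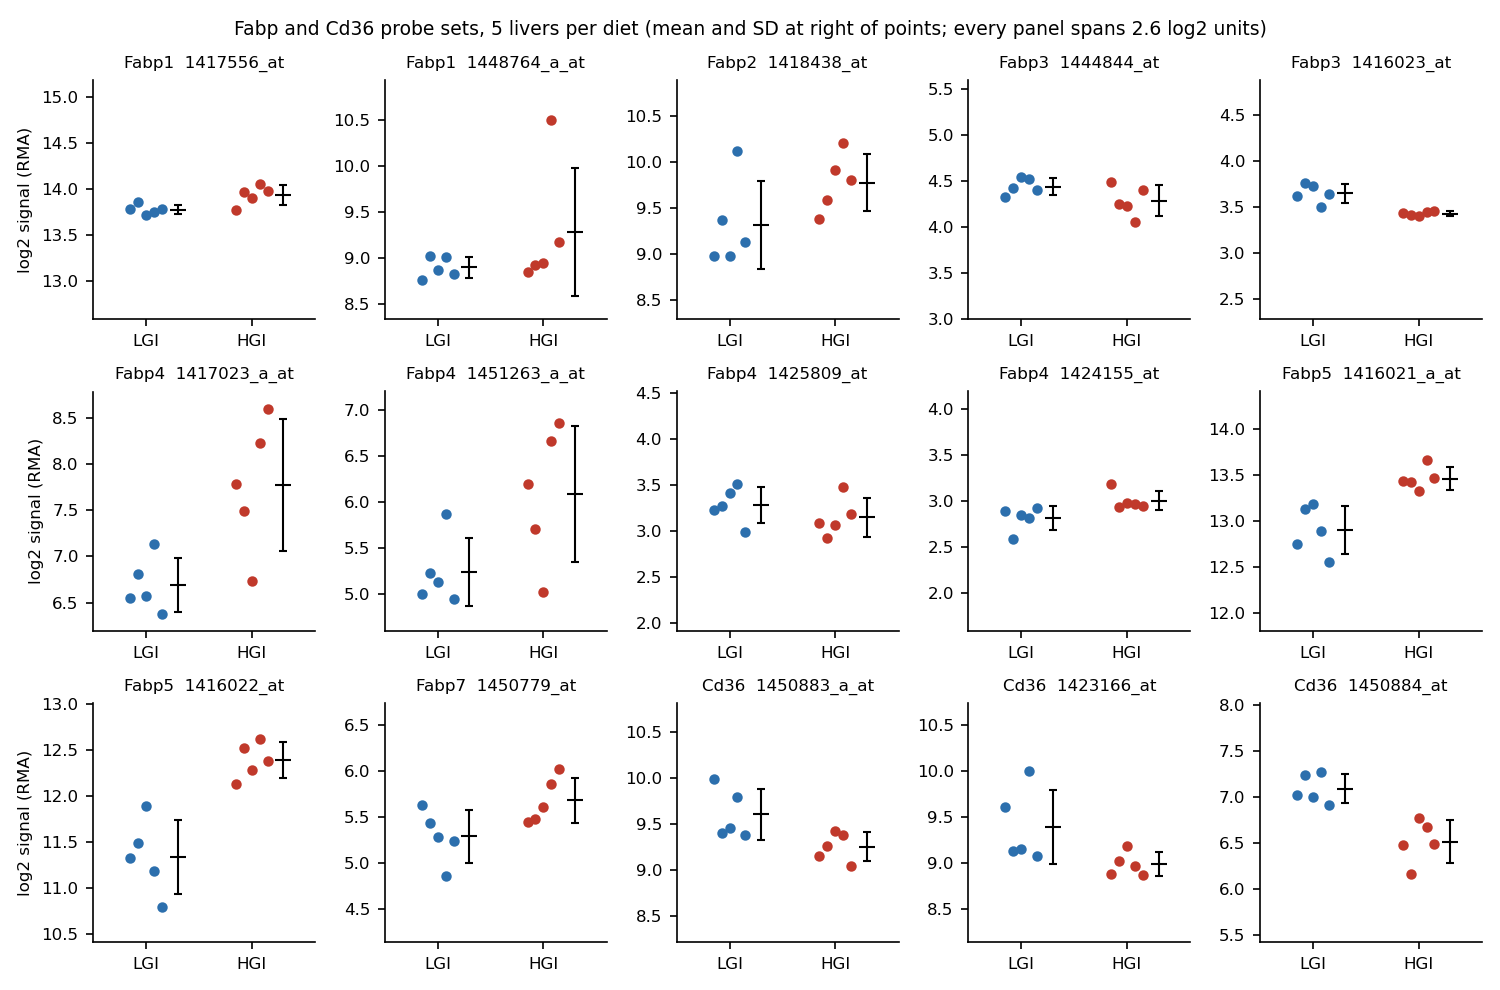
Log2 signal (vertical axis) of each member probe set in the livers of 5 LGI mice (blue) and 5 HGI mice (red), 1 point per mouse in replicate order, with the mean and SD at the right; every panel spans the same range. Both Fabp5 sets separate the diets upward in HGI, with a gap of 0.24 at 1416022_at, and Cd36 1450884_at separates them downward.

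Fabp5, the form of skin and macrophages, was higher in every HGI liver than in any LGI liver at both of its probe sets. At 1416022_at the HGI mice stood at 12.13, 12.53, 12.29, 12.63 and 12.38 and the LGI mice at 11.33, 11.49, 11.89, 11.19 and 10.80. The lowest HGI value lay 0.24 above the highest LGI value. The means were 12.39 ± 0.19 and 11.34 ± 0.40 (SD, n = 5 each), a difference of 1.05 ± 0.17 (SE) or 2.07-fold. With single mice left out the difference ran from 0.91 (without LGI 5) to 1.19 (without LGI 3).

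The second Fabp5 set, 1416021_a_at, had the brighter signal. The HGI mice stood at 13.43, 13.42, 13.33, 13.66 and 13.46 and the LGI mice at 12.75, 13.13, 13.18, 12.89 and 12.55. Again no LGI mouse reached the HGI range, and the gap was 0.14. The difference was 0.56 ± 0.12 (SE), or 1.47-fold, and 0.56 without HGI 1 and LGI 4. Signals at this set lay above 99.8% of the array, near its upper end, and at 1416022_at above 99.1%. Whether the smaller difference goes with the brighter signal was not tested. Averaged over both sets the difference was 0.80. HGI mice were also more alike than LGI mice at both sets, with an SD of 0.12 against 0.26 at 1416021_a_at.

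Fabp4, the adipocyte and macrophage form, was higher in most but not all HGI livers, with a wide spread between HGI mice. At 1417023_a_at the HGI mice stood at 7.79, 7.50, 6.74, 8.23 and 8.60 and the LGI mice at 6.55, 6.81, 6.57, 7.13 and 6.38. Of the HGI mice 4 lay above every LGI mouse, and HGI 3 lay inside the LGI range. The means were 7.77 ± 0.72 and 6.69 ± 0.29 (SD, n = 5 each), a difference of 1.08 ± 0.28 (SE) or 2.12-fold. It was 1.34 without HGI 3 and 0.87 without HGI 5.

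A dimmer Fabp4 set, 1451263_a_at, gave the same order of mice within HGI: 6.20, 5.71, 5.03, 6.66 and 6.86. The LGI mice stood there at 5.00, 5.24, 5.14, 5.87 and 4.95. HGI 4 and HGI 5 were again highest and HGI 3 lowest, and LGI 4 was the highest LGI mouse at both sets. The difference was 0.85 ± 0.30 (SE). The remaining sets, 1425809_at and 1424155_at, lay below the array median on every array and differed by -0.14 ± 0.12 and 0.19 ± 0.09 (SE). The first was -0.08 without HGI 2 or LGI 4, -0.22 without HGI 4, -0.21 without LGI 5 and -0.06 without HGI 1 and LGI 4. At 1424155_at the diets did not overlap by a margin of 0.01. In whole liver, fewer cells of a type and less RNA per cell cannot be told apart.

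Fabp1, the main carrier of fatty acids in hepatocytes, had a difference of 0.16 at its brighter set. That set, 1417556_at, lay above 99.9% of the array, near its upper end, and whether this limits the difference was not tested. The HGI mice stood at 13.78, 13.98, 13.90, 14.06 and 13.99 and the LGI mice at 13.78, 13.86, 13.72, 13.76 and 13.79. The ranges overlapped through HGI 1, while the other 4 HGI mice lay above all LGI mice. The SE of the difference was 0.08, and the fold 1.12. At 1448764_a_at a single mouse, HGI 4, stood at 10.50, and the other 4 HGI mice stood at 8.85 to 9.18 against 8.77 to 9.03 in LGI. The difference of 0.38 ± 0.25 (SE) became 0.07 without HGI 4.

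Fabp2, the intestinal form, had a difference of 0.46 ± 0.21 (SE), or 1.38-fold, at its only set, 1418438_at. The HGI mice stood at 9.38, 9.59, 9.91, 10.20 and 9.80 and the LGI mice at 8.98, 9.37, 8.98, 10.12 and 9.13. LGI 4 lay among the highest HGI mice, and the other 4 LGI mice lay below every HGI mouse. Without HGI 1 and LGI 4 the difference was 0.76. Signals of this set ranked above 95.8% of the array. All 4 measured enterocyte markers, Vil1 and Cdh17 among them, lay below the array median on every array. The part of intestinal cells in the Fabp2 values was not tested.

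Fabp3, the heart and muscle form, was dim at both sets. At 1416023_at all mice lay below the array median, at 3.40 to 3.46 in HGI and 3.50 to 3.76 in LGI, which did not overlap by 0.04 (difference -0.22 ± 0.07, SE). At 1444844_at the ranges were 4.06 to 4.49 and 4.33 to 4.54 and overlapped (-0.15 ± 0.09, SE; -0.10 without HGI 4). The table of genes also lists a pseudogene of Fabp3, which these sets may not tell from the gene.

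Fabp7, the brain form, had 1 set, 1450779_at, with moderate signal. The HGI mice stood at 5.44, 5.48, 5.61, 5.86 and 6.02 and the LGI mice at 5.63, 5.43, 5.29, 4.86 and 5.24. The ranges overlapped through LGI 1, which lay above 3 of the HGI mice. The difference was 0.39 ± 0.15 (SE), or 1.31-fold, and 0.34 without HGI 1 and LGI 4.

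Cd36, the receptor, had the opposite sign to Fabp4 and Fabp5 and was lower in HGI at all 3 of its sets. At 1450884_at the HGI mice stood at 6.48, 6.17, 6.78, 6.68 and 6.49 and the LGI mice at 7.03, 7.24, 6.999, 7.28 and 6.91. Every HGI mouse lay below every LGI mouse, with a gap of 0.14. The difference was -0.57 ± 0.12 (SE), 1.49-fold lower in HGI, and -0.52 without HGI 1 and LGI 4.

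At the brighter Cd36 sets the sign was the same, with overlap of the ranges. At 1450883_a_at the HGI mice stood at 9.16, 9.26, 9.43, 9.38 and 9.04 and the LGI mice at 9.99, 9.40, 9.46, 9.80 and 9.38. At 1423166_at they stood at 8.88, 9.03, 9.19, 8.96 and 8.88 against 9.61, 9.13, 9.15, 10.003 and 9.07. LGI 1 and LGI 4 were the highest mice at both sets, and the other 3 LGI mice lay near the top of the HGI range. The differences were -0.35 ± 0.13 and -0.41 ± 0.16 (SE), and the latter became -0.25 without LGI 4.

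**Figure D2:**
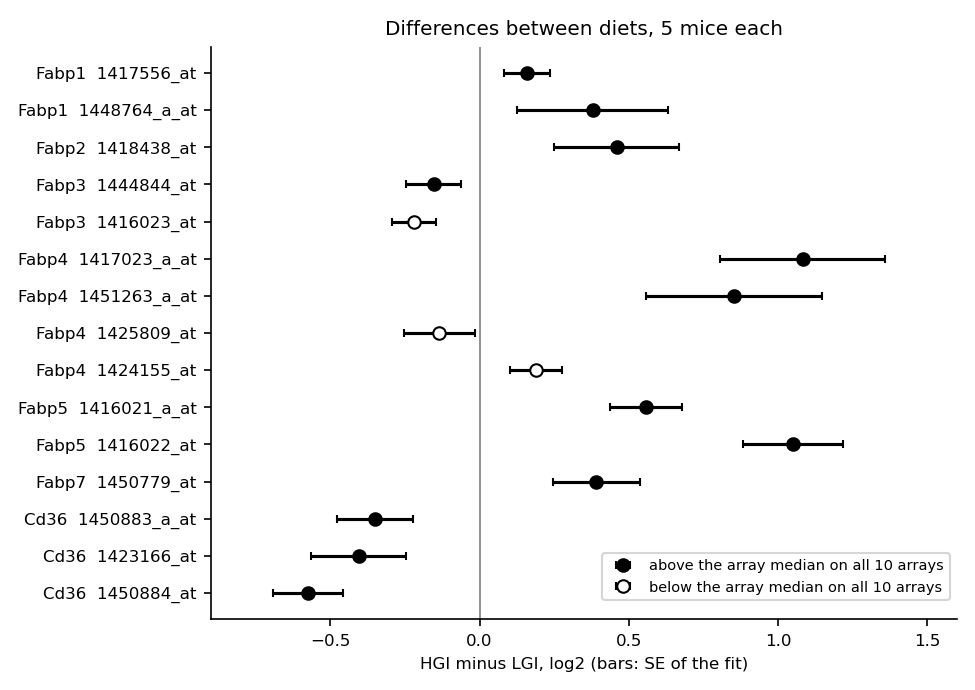
Difference between the diets (HGI minus LGI, log2) with its standard error for each member probe set, from 5 mice per diet. Open circles are sets below the array median on all 10 arrays; Fabp4 1417023_a_at (1.08) and Fabp5 1416022_at (1.05) lie farthest right and Cd36 1450884_at (-0.57) farthest left.

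Fabp4 and Fabp5 lie in a cluster of related genes, in the order Fabp5, Pmp2, Fabp9, Fabp4 and Fabp12 on the chromosome (RefSeq, GRCm38.p6, used for order only). Pmp2, the form of peripheral myelin, and Fabp9, the form of testis, lie between them and stood at -0.13 ± 0.08 and -0.14 ± 0.14 (SE), with Fabp9 below the array median on every array. Fabp12 stood at 5.44 ± 0.32 in HGI and 4.95 ± 0.21 in LGI (SD, n = 5 each) and did not pass the test (difference 0.49, limma adjusted p = 0.412). Outside the cluster Zbtb10, Zfp704 and Pag1 on 1 side and Impa1 and Zfand1 on the other lay between -0.11 and 0.11. Slc10a5, between Impa1 and Zfand1, was not analysed here. The neighbours were chosen after the values were seen.

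**Figure D3:**
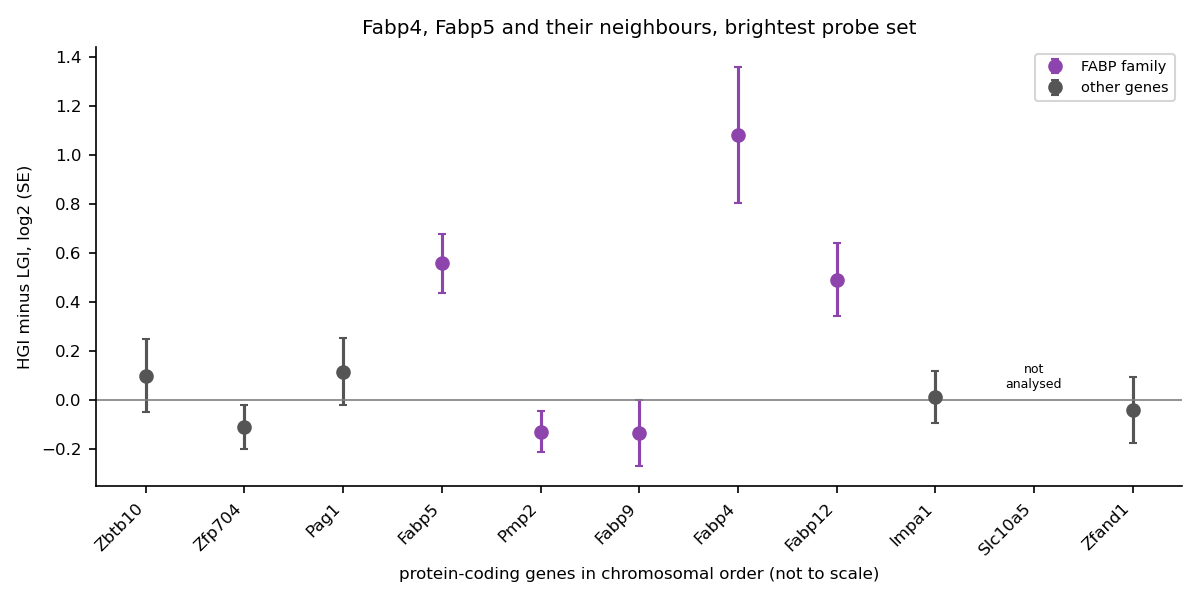
Difference between the diets (HGI minus LGI, log2, with SE, 5 mice per diet) at the brightest probe set of each protein-coding gene around Fabp4 and Fabp5, in chromosomal order. Fabp5 (0.56), Fabp4 (1.08) and Fabp12 (0.49) lie above 0, and Pmp2 and Fabp9 between them lie near it.

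Variation between mice of the same diet is independent of the contrast by which the genes were proposed, and was compared through the deviation of each mouse from its diet mean. Probe sets of 1 gene are given first, in 6 pairs with a mean of at least 5. This family was added after the data were seen. The 2 brighter Fabp4 sets went together across the 10 mice (Pearson r = 0.983, exact permutation p = 6.94e-05, which is the smallest that 14400 arrangements within diets can give, adjusted p = 4.17e-04; Spearman rho = 0.964, exact permutation p = 1.39e-04, adjusted p = 8.33e-04). Without HGI 3 and HGI 5, the mice farthest from the median, r was 0.972. The 2 Fabp5 sets had r = 0.859 (exact permutation p = 0.00833, adjusted p = 0.0250; rho = 0.697, exact permutation p = 0.0654, adjusted p = 0.131), and r = 0.617 without LGI 3 and LGI 5 (exact permutation p = 0.121), so that relation rests in part on these mice.

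Among the Cd36 sets the brighter pair had r = 0.802 (exact permutation p = 0.0299, adjusted p = 0.0599; rho = 0.939, exact permutation p = 0.00104, adjusted p = 0.00313), and 0.815 without LGI 1 and LGI 4. The set with the separated diets, 1450884_at, had r = 0.296 and 0.379 with these 2 (exact permutation p = 0.377 and 0.210, adjusted p = 0.377 and 0.252; rho = 0.394 with each, exact permutation p = 0.270 and 0.254, adjusted p = 0.270 for each; r = 0.424 and 0.353 without LGI 1 and LGI 4). The 2 Fabp1 sets had r = 0.655 (exact permutation p = 0.197, adjusted p = 0.252; rho = 0.539, exact permutation p = 0.118, adjusted p = 0.178), which was 0.388 without HGI 1 and HGI 4. After adjustment the Fabp4 pair passed by r and rho, the Fabp5 pair by r alone and the brighter Cd36 pair by rho alone.

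Between genes, 6 pairs of Fabp1, Fabp4, Fabp5 and Cd36 were tested at the brightest set of each, and none passed after adjustment. Fabp4 and Fabp5 had r = 0.409 (exact permutation p = 0.121, adjusted p = 0.727) and rho = 0.673 (exact permutation p = 0.0209, adjusted p = 0.125), with r = 0.489 without HGI 3 and HGI 5. Fabp5 and Cd36 had r = -0.183 (exact permutation p = 0.693, adjusted p = 0.831; rho = -0.212, exact permutation p = 0.606, adjusted p = 0.727), and r = -0.585 without LGI 3 and LGI 5. The other 4 pairs had r between -0.212 and 0.340, with exact permutation p from 0.471 to 0.972 (adjusted 0.754 to 0.972), and rho between -0.224 and 0.418, with adjusted p of 0.727 to 0.771.

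**Figure D4:**
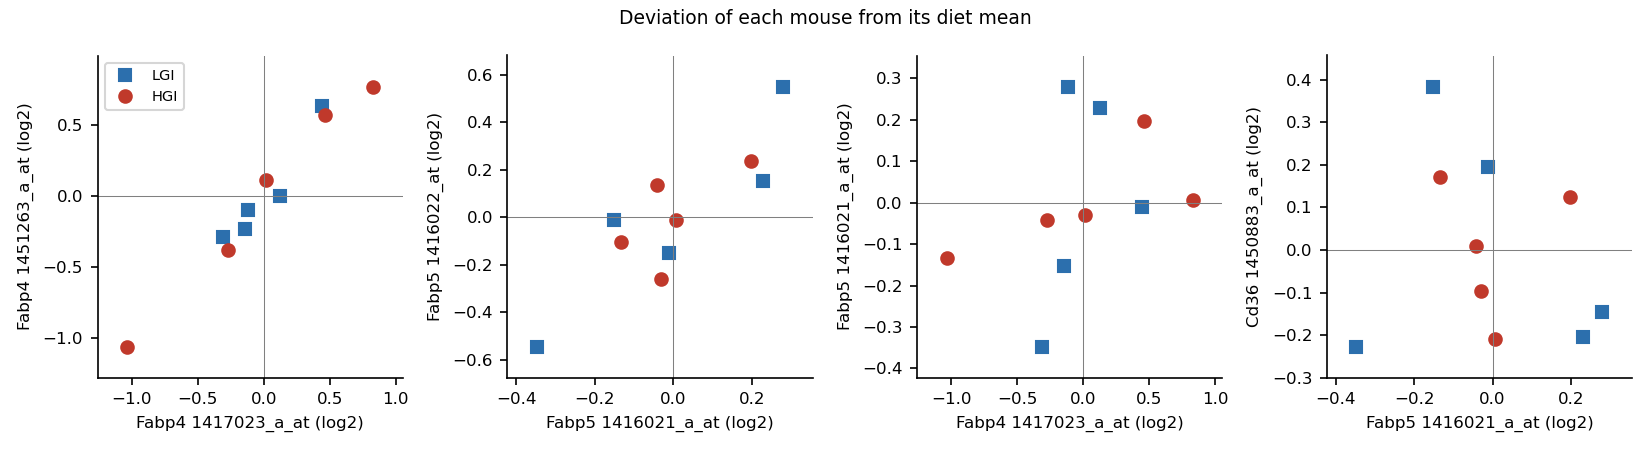
Deviation of each mouse from its diet mean (log2) at pairs of probe sets, 5 LGI mice (squares) and 5 HGI mice (circles). The 2 Fabp4 sets (first panel, r = 0.983) lie close to a line, the 2 Fabp5 sets (r = 0.859) less so, and Fabp4 with Fabp5 (r = 0.409) and Fabp5 with Cd36 (r = -0.183) scatter widely.

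Genes with the most similar deviations over the 10 mice were named as a description, from 7033 other genes with a set of mean log2 of at least 6. For Fabp4 1417023_a_at they were Edem3, Utp6, Ubxn4, Gja1 and Txndc11, with r of 0.959 to 0.950. Edem3 acts on misfolded glycoproteins of the endoplasmic reticulum, and Gja1 is the gap junction protein connexin 43. Their own differences between the diets lay between -0.09 and 0.35, and none passed the test. For Fabp5 1416021_a_at they were Mrps25, Sub1, Lta4h, Tmem9b and Dnajc8 (r of 0.921 to 0.847), and for 1416022_at Crem, Cd82, Lta4h, Tcn2 and Chchd3 (r of 0.901 to 0.856). Lta4h, an enzyme of leukotriene synthesis, was named for both sets with r = 0.881 each. For Cd36 1450883_a_at they were Spop, Hspb8, Rhoa, Nap1l1 and Ero1b (r of 0.890 to 0.825). No test was attached to these correlations, since the genes were picked as the highest of 7033.

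Other genes of fatty acid uptake, binding and control were read from 7 lists. Of 78 listed genes 69 had a named probe set, and at the brightest set of each 0 of 69 passed limma adjusted over all probe sets, against 0.0824% of all 18193 genes. At an unadjusted p under 0.05 there were 18, or 26.1%, against 9.3% of all genes (3.07% higher and 6.23% lower). The lists were chosen with earlier results of these data known, so nothing is read from the larger share. The median difference over the 69 was -0.07, and -0.03 over all genes.

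Among 15 genes of fatty acid uptake and activation 1 was higher and 4 were lower at an unadjusted p under 0.05, and the median was -0.04. Acsl5, which joins long-chain fatty acids to coenzyme A, stood at 0.32 ± 0.12 (SE, adjusted p = 0.564). Acsm1 and Acsm5, which do so for medium-chain acids, stood at -0.46 ± 0.11 and -0.64 ± 0.16 (SE, adjusted p = 0.235 and 0.270). The diets did not overlap at either of them, as at 1.2% of all probe sets with HGI lower, and neither passed limma. Acsm3, a related enzyme, overlapped and stood at -0.08 (adjusted p = 0.943). The 6 acyl-CoA and sterol carriers had a median of 0.01, with Acbd3 at 0.21, Acbd4 at -0.28 and Acbd6 at -0.10 (adjusted p of 0.704, 0.687 and 0.884). Without HGI 1 and LGI 4, Acbd4 stood at -0.10 and Acbd6 at -0.04. The 8 other lipid-binding proteins of the Fabp family had a median of -0.05, with Rbp2, a retinol carrier, at -0.12 (adjusted p = 0.777).

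In the list of Cd36 relatives and palmitoylation, Zdhhc5 and Lypla1 stood at -0.04 and -0.05 (adjusted p = 0.968 and 0.965). The median over all genes was -0.03. All 5 genes of the list lay below 0, with a median of -0.13. After renewed quantile normalization, and without HGI 1 and LGI 4, 4 of the 5 did, with medians of -0.08 and -0.07. Scarb1, the receptor for high-density lipoprotein, stood at -0.33 ± 0.10 (SE, adjusted p = 0.395), Scarb2 at -0.13 (adjusted p = 0.808; -0.07 without HGI 1 and LGI 4) and Zdhhc4, which palmitoylates Cd36, at -0.21 (adjusted p = 0.655). The 17 transcription factors known to act on Fabp or Cd36 genes had a median of 0.01. Ppard, a PPAR, stood at 0.34 ± 0.13, Nr1i2, the pregnane X receptor, at -0.39 ± 0.17 and Hnf4a at -0.11 ± 0.08 (SE, adjusted p of 0.539, 0.627 and 0.819), while Ppara and Pparg stood at 0.10 and 0.15 (adjusted p = 0.944 and 0.884), and at 0.16 and 0.33 without HGI 1 and LGI 4.

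The 12 PPARalpha targets had a median of -0.25, which was -0.05 without HGI 1 and LGI 4 (6 above and 6 below 0), and 6 were lower and 2 higher at an unadjusted p under 0.05. Cyp4a14, a fatty acid hydroxylase, stood at -2.09 ± 0.58 and Ehhadh, a peroxisomal enzyme of fatty acid oxidation, at -0.83 ± 0.25 (SE, adjusted p = 0.338 and 0.424), and these became -1.39 and -0.42 without the 2 arrays. The diets overlapped at Cyp4a14. At Ehhadh they did not, with a gap of 0.06, as at 1.2% of all probe sets with HGI lower. Pdk4, the kinase that holds back pyruvate oxidation, stood at 0.68 ± 0.21 (SE, adjusted p = 0.413). The 6 PPARgamma targets of fatty liver had a median of -0.09. Plin2, which coats lipid droplets, stood at 0.29, Mogat1 at -0.48 and Cidec at -0.10 (adjusted p of 0.746, 0.684 and 0.871). Without HGI 1 and LGI 4, Plin2 stood at 0.45 and Mogat1 at -0.25. None of the 69 genes passed limma, as given above.

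**Figure D5:**
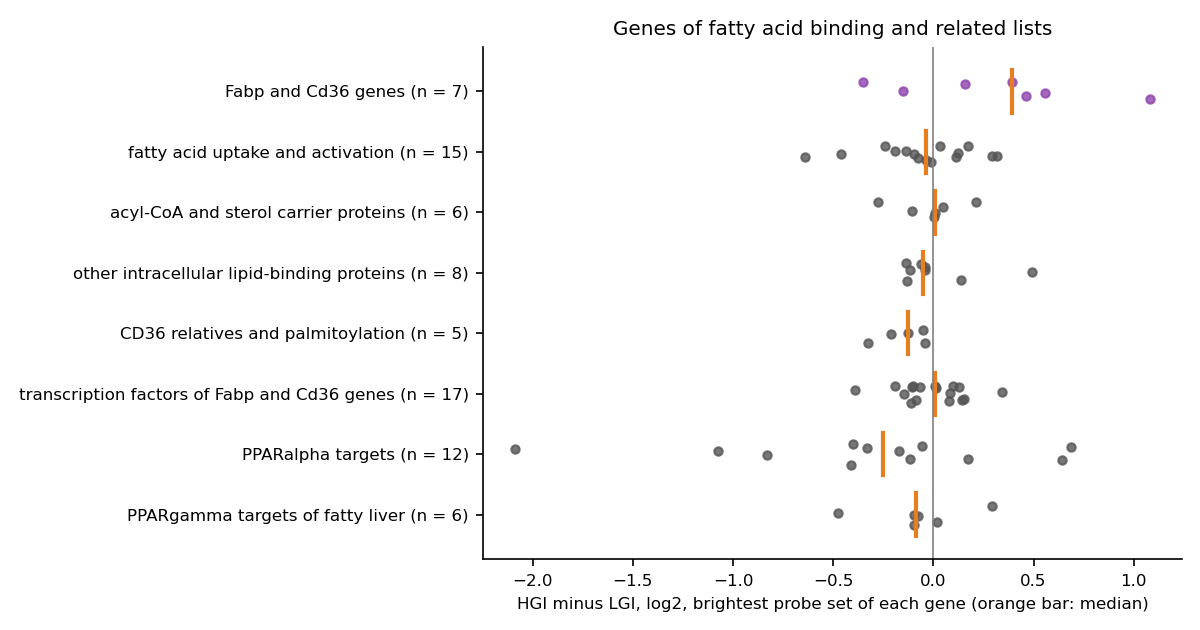
Difference between the diets (HGI minus LGI, log2, brightest probe set of each gene) for the 7 Fabp and Cd36 genes (purple) and for 7 lists of related genes (grey), with the median of each as an orange bar. The list medians run from -0.25 (PPARalpha targets) to 0.01, and no gene in grey passed limma over all probe sets.

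Fabp4, Fabp5 and Cd36 are also expressed outside hepatocytes, so markers of other cells are given beside them. The 6 hepatocyte markers, Alb among them, were near the top of every array, with list means of 13.69 to 13.82 log2. All 10 macrophage markers lay above 0, with a median of 0.28 and 0 past limma (1 at an unadjusted p under 0.05). Their mean over the list was 6.98 to 7.83 in HGI and 6.72 to 7.43 in LGI, highest in HGI 5 of the HGI mice and in LGI 4 of the LGI mice, where Fabp4 was also highest. Fabp5 1416022_at had another order, with LGI 3 the highest LGI mouse (macrophage mean 6.73) and LGI 4 (7.43) the lowest but 1. HGI 5 was also the highest HGI mouse for the sinusoidal, continuous capillary, stellate, biliary, erythroid and neutrophil lists, though not for other marker lists. LGI 4 was also the highest LGI mouse for the neutrophil list, but not for the other lists just named. Vsig4, Cd68 and Cd163 stood at 0.46, 0.37 and 0.34 (adjusted p = 0.525, 0.698 and 0.704). All 7 sinusoidal endothelial markers lay above 0, with a median of 0.25 and 0 past limma (2 at an unadjusted p under 0.05), and list means of 6.88 to 7.56 in HGI and 6.75 to 7.03 in LGI. Stab2, a scavenger receptor of sinusoids, stood at 0.76 (adjusted p = 0.217). The part of macrophages and endothelium in the Fabp4 and Fabp5 differences was not tested. Cd36 lay in the opposite direction to both lists.

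Of 4 measured adipocyte markers, Adipoq and Lep lay below the array median on every array, and Retn and Lipe lay above it on every array, with differences of -0.07 and -0.32 (adjusted p = 0.907 and 0.532). The list stood at 3.86 to 4.07 in HGI and 3.94 to 4.18 in LGI, with a median difference of -0.05, and the part of adipocytes in the Fabp4 values was not tested. The 6 markers of continuous capillaries had a median of 0.04, with Vwf, von Willebrand factor, at 0.78 (adjusted p = 0.491). The 4 erythroid markers had a median of 0.72, with Slc4a1, the anion exchanger of red cells, at 2.25 (adjusted p = 0.0625) and Alas2 at 1.34 (adjusted p = 0.262), and with Hba-a1 and Epb42 below the array median on every array at 0.02 and 0.10. Another Slc4a1 set was 2.57 ± 0.33 (SE) higher in HGI and passed limma (adjusted p = 0.0211). The diets did not overlap at either of these Slc4a1 sets, as at 0.475% of all probe sets with HGI higher. The remaining Slc4a1 set lay below the array median on every array and stood at -0.01. The list had means of 5.29 to 5.98 in HGI and 4.32 to 5.29 in LGI, and the part of red cells was not tested. Medians of the other 8 lists (stellate, biliary, neutrophil, dendritic, muscle, intestinal, glial and pancreatic cells) lay between -0.06 and 0.11.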

How the data were processed

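Liver RNA of 10 mice was measured on Affymetrix expression arrays, 1 per mouse. The authors' deposited values are log2 signals per probe set; they were made with RMA in R 2.6.1 per the submitters' processing notes, and other steps are not given in the sources used here. Of 45101 probe sets, 64 controls were left out. Symbols came from the platform annotation, checked through gene IDs against RefSeq (34945 sets with 1 symbol, 932 with several, 9160 with none; 0 symbols changed).

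HGI and LGI were compared with limma 3.58.1 in R 4.3.3 (lmFit, eBayes, no covariates, no filter), with Benjamini-Hochberg adjustment over all 45037 sets and a threshold of 0.05. The procedure was tested on simulated data. Deviations from diet means were compared by two-sided exact permutation within diets, adjusted over 6 pairs per family; the family of sets of 1 gene was added after seeing the data. Each list gene entered at its set of highest mean. From each list, genes that passed were named, or otherwise up to 3 with the smallest p, for the pathway lists and the marker lists that touch a result. For similar patterns the 5 genes of highest r were named. A further few genes (Ppara, Pparg, Adipoq, Lep, Alb and the neighbours) were chosen by hand. The members and lists were chosen with earlier results of these data known. The labels name separate mice; the number of arrays limits the precision. Alternatives were a filter on dim sets, renewed normalization, centring, other variance models, array weights, a replicate block and arrays left out.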

Additional observations from a re-analysis of the deposited data

Results flagged for a closer look

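In groups of 5 mice, single mice stood far from the other 4 of their diet in 11 of 156 groups examined, where chance gives about 1 in 20. Among the members, HGI 4 stood at 10.50 at Fabp1 1448764_a_at against 8.85 to 9.18, and HGI 1 at 3.19 at the dim Fabp4 1424155_at against 2.94 to 2.98. LGI 4 stood apart at 5 further genes: Acsl5 (11.49 against 12.06 to 12.13), Apoa1 (14.17 against 14.52 to 14.57), Lipe (5.22 against 5.68 to 5.81), S100a9 (9.31 against 5.40 to 5.75) and S100a8 (8.92 against 3.95 to 4.28). HGI 1 stood apart at Acbd6 (7.20 against 7.54 to 7.62) and Apoa1 (14.55 against 14.59 to 14.60). HGI 4 stood apart at Lrat (7.35 against 6.24 to 6.44) and the dim Adipoq (2.43 against 2.61 to 2.68).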

How the results depend on the processing

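Of 230 differences of member probe sets recomputed under the alternatives, 227 moved by less than 1 SD and 0 changed sign. Most of these could not move that far: the replicate block leaves a difference unchanged and median centring shifts all sets alike. Leaving out 1 of 5 mice moves a group mean by less than 1 SD of that group. The count of 227 is therefore no measure of robustness. The 3 that moved more were means over all sets of a gene: 0.27 for Fabp1, 0.50 for Fabp4 and 0.80 for Fabp5. The count of probe sets past the threshold was 63 after renewed quantile normalization, 17 after median centring, 64 with array weights and 58 without HGI 1 and LGI 4, an alternative chosen after seeing the data; leaving out single arrays gave 5 (without LGI 2, LGI 3 or LGI 5) to 49 (without HGI 3), with 7 without HGI 5 and 15 without HGI 4. The count of member sets past it was 0 after median centring and 0 without those 2 arrays, and 0 to 1 with single arrays left out (1 without HGI 3, there Fabp4 1417023_a_at, or without LGI 3, and 0 without any other). With the replicate block it was 0, and the count over all sets 33. The members were chosen with their differences known, so nothing is read from any of these member counts. Over all probe sets, deviations of mice with the same replicate number had correlations of -0.05 to 0.07. A pairing of these mice that touches only some genes was not tested. Of the 69 genes of the pathway lists, 0 passed the threshold under every alternative run (the marker lists were not rerun). At an unadjusted p under 0.05 there were 13 to 19 where all 69 were tested. With the filter on dim sets there were 10 of the 47 genes left. Within diets, the correlation of Fabp1 and Cd36 (0.012) reversed to -0.546 after renewed normalization and to -0.377 without the 2 farthest mice, and that of Fabp4 and Cd36 (-0.212) to 0.056 over all sets of each gene and to 0.321 without the 2 farthest; none passed, and the cause was not tested. With single mice left out they ran from -0.189 to 0.165 and from -0.362 to 0.025, that of Fabp1 and Fabp5 from -0.0048 to 0.465 and that of Fabp5 and Cd36 from -0.667 to 0.024.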
